A study of Homo sapiens with 16 samples.

Results

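The 37 imprinted genes described here were followed by ChIP-seq of dimethylated lysine 9 of histone H3 (H3K9me2), at every annotated transcription start of each gene. They were found by symbol in a table of 2 kb windows, each reaching 1 kb to either side of a start, and they held 553 windows of distinct coordinates among 237274 in the whole table. Each alternative start was kept as a window of its own. The genes fall into 17 imprinted clusters on 11 chromosomes. The cells were BJ-5ta, a line of human fibroblasts immortalised with the catalytic subunit of telomerase (hTERT). Wild-type (WT) cells were compared with ΔLEO1 cells, a single clone in which CRISPR-Cas9 was aimed at the first exons of LEO1, a subunit of the PAF1 complex that travels with RNA polymerase II. Both were grown in 10% serum, in which they proliferate, or kept for 10 days in 0.1% serum, which takes fibroblasts into quiescence. Each of the 4 conditions had ChIP and input libraries from replicates A and B, 16 libraries in all, and the labels name the antibody only as H3 while the study's methods name H3K9me2.

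An imprinted gene is transcribed from the copy of 1 parent. The copies are told apart by DNA methylation set in the egg or the sperm at an imprinting control region, and the zinc finger protein ZFP57 holds that methylation by binding the methylated hexamer TGCCGC. H3K9me2 and H3K9me3 are marks of silent chromatin that are known from the methylated copy of such regions, while the active copy carries marks of open promoters. The reads used here do not separate the copies, so each value is a sum over both parental alleles and over all cells, and a mark on fewer copies and a weaker mark on each copy cannot be told apart.

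Promoter sequences are shown first for 6 members whose start windows lie at opposite ends of the ChIP scale. MKRN3, NDN and SNRPN belong to the Prader-Willi cluster on chromosome 15 and are transcribed from the paternal copy, as is NAP1L5 on chromosome 4. UBE3A, whose paternal copy is silenced only in neurons, and COPG2, which lies beside the imprinted MEST, served as the other end. Each line gives the 250 bases upstream of the start from RefSeq (GRCh38.p14), 5′ to 3′ on the strand of the gene, with capitals at TGCCGC or at its reverse complement GCGGCA.

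MKRN3: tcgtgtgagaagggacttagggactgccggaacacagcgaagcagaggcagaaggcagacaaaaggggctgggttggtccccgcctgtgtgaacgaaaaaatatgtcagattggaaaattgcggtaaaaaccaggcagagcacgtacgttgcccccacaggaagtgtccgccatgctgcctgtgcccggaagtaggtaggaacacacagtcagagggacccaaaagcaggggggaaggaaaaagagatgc
NDN: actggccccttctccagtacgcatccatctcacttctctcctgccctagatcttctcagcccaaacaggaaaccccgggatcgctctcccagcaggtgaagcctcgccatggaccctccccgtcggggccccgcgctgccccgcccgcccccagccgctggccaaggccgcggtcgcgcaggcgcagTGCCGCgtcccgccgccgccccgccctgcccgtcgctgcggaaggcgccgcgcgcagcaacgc
SNRPN: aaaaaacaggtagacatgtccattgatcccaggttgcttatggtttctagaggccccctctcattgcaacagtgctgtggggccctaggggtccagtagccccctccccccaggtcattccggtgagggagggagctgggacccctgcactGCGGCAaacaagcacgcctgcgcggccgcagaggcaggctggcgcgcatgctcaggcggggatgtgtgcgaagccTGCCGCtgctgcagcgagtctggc
NAP1L5: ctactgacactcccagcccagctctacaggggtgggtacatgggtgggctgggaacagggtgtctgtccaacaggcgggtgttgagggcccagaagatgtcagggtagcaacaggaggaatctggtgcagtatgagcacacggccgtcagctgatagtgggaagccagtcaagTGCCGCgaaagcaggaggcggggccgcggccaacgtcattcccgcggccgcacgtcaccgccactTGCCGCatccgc
UBE3A: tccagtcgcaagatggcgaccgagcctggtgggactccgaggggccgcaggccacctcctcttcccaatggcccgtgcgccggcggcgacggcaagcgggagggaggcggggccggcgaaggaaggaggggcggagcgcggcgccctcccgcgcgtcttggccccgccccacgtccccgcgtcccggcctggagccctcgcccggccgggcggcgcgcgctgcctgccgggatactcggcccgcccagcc
COPG2: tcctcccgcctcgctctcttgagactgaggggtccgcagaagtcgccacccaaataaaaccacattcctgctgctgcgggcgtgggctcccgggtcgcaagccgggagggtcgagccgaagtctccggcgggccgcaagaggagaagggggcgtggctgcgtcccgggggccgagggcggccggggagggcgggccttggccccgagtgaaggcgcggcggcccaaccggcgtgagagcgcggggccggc

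These stretches lie at chr15:23565424-23565673 (plus strand, MKRN3), chr15:23687306-23687555 (minus strand, NDN), chr15:24954737-24954986 (plus strand, SNRPN), chr4:88697830-88698079 (minus strand, NAP1L5), chr15:25439025-25439274 (minus strand, UBE3A) and chr7:130668749-130668998 (minus strand, COPG2). They hold 10 CpG in MKRN3, 30 CpG in NDN, 12 CpG in SNRPN, 16 CpG in NAP1L5, 37 CpG in UBE3A and 30 CpG in COPG2. The hexamer stood 2 times in SNRPN, 2 times in NAP1L5 and 1 time in NDN, and it was not found in these bases of MKRN3, UBE3A or COPG2. These 6 do not stand for all members. Promoters of IGF2R (-1.06), ATP10A (-1.22) and BLCAP (-1.07 and -1.32) hold the hexamer, and their windows were lower in ChIP in WT cells in 10% serum. Whether the hexamer goes with ChIP over input was not tested. The 2 kb windows around the first 4 of these starts gave log2 ChIP over input of 1.32 to 2.41 in WT cells in 10% serum, and those of UBE3A and COPG2 gave -1.20 and -0.95.

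One ChIP library, replicate A of ΔLEO1 in 10% serum, held only 54 reads over the whole table and was left out, so that condition has 1 ChIP library, assumed to vary like the others. The other ChIP libraries held 2153836 to 3696942 reads over all rows of the table, and the inputs 3267811 to 9238282. A median window had 6 to 12 ChIP reads and 12 to 35 input reads, so a single window is measured with a wide error. Nothing in the labels says that A and B came from separate cultures, and p-values then measure only the spread between these libraries. The targeted gene gave no check of the genotype. At the start of LEO1 (chr15:51970778-51972778) the inputs held 28 and 53 reads in WT cells and 16 and 24 in ΔLEO1 cells in 10% serum, and 28 and 26 in WT cells and 20 and 24 in ΔLEO1 cells in 0.1% serum. In CPM, counts scaled by the effective library size, these were 4.18 to 6.5 in WT and 3.15 to 5.41 in ΔLEO1 cells, ranges that overlap. The window also holds sequence upstream of the first exon, and the ends of the deletion are not given in the sources used here. The genotype rests on the labels and on the blot and PCR of the clone that the study's methods describe. Fly chromatin was added to each sample by the authors, but no fly windows are in the tables, and a shift shared by all windows cannot be seen on the scale used here. As a check of the scale, all 8 of 8 promoters of genes that fibroblasts use were lower in ChIP than in input in WT cells in 10% serum, with GAPDH at -3.87, VIM at -3.10, COL1A1 at -2.42 and THY1 at -1.09 on the log2 scale. None of 7 tested promoters of genes of other tissues was lower, and 3 were higher, KRT1 with 1.67, NEUROD1 with 1.03 and TNNI3 with 0.81. With 1 window for each of 36988 genes, 38.4% were higher and 24.4% lower, so 3 of 7 is near the share of all genes. The median of the 7 was 0.80, beside 0.33 over all genes. In WT cells in 0.1% serum it was 0.34, beside 0.34.

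Of the 553 member windows 493 had enough reads to be tested. Reads were too few for H19, a maternally expressed noncoding RNA with 20 windows, of which 11 lie on a patch scaffold. The 4 of its windows kept as non-overlapping held 5 input reads and 0 ChIP reads. PHLDA2, a maternally expressed brake on placental growth, had 41 input reads and 3 ChIP reads. None of the 26 windows of SLC22A18 could be tested, and its summed windows held 177 input reads and 38 ChIP reads. Of the 16 windows of ZDBF2, 8 lie on alternative scaffolds and could not be tested. The window of NDN and that of MAGEL2 picked by the rule of most shared transcripts lie on a patch scaffold without reads, and their windows on chromosome 15 are described in their place.

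In WT cells in 10% serum the imprinted genes had more windows with ChIP above input, and fewer below it, than the table as a whole. ChIP was higher in 176 of the 493 member windows (35.7%), where 28.0% of all 206148 tested windows were higher, and lower in 66 (13.4%), against 30.4% of all. In ΔLEO1 cells in 10% serum 102 member windows were higher and 13 lower, with 14.7% and 11.6% of all windows. In 0.1% serum the shares of higher windows were close to those of all windows, and the shares of lower windows were below them. WT cells in 0.1% serum had 132 higher (26.8%, and 26.8% of all) and 52 lower (10.5%, and 26.4% of all), and ΔLEO1 cells had 145 higher (29.4%, and 28.0% of all) and 56 lower (11.4%, and 27.0% of all). A window was called when edgeR's adjusted p over all tested windows was under 0.05, and windows of 1 gene overlap and are not separate measurements. Fewer windows were called in WT cells in either serum and in ΔLEO1 cells in 0.1% serum when 1 replicate, its ChIP and input together, was left out. DESeq2 called 84 higher and 49 lower in WT cells in 10% serum. The share of all windows that DESeq2 called is not given here. The direction of ChIP over input is relative to the other start windows. With reads in peaks as library sizes, the median of all windows moved by -2.05 on the log2 scale in WT cells in 10% serum and 0 member windows were higher.

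Summing the windows of each gene that do not overlap gave 35 testable genes, of which 13 were higher and 4 lower in WT cells in 10% serum, where 26.8% and 31.9% of all 37259 gene sums were called. The counts were 13 and 5 for WT cells in 0.1% serum (21.4% and 26.6% of all), 9 and 4 for ΔLEO1 cells in 10% serum (13.5% and 19.4%), and 11 and 7 for ΔLEO1 cells in 0.1% serum (20% and 26.3%). These counts turn on single replicates, each left out with its ChIP and its input. In WT cells in 10% serum they were 9 and 4 without replicate A and 8 and 3 without replicate B, in WT cells in 0.1% serum 2 and 2 without A and 9 and 2 without B, and in ΔLEO1 cells in 0.1% serum 3 and 3 without A and 5 and 2 without B. Among genes with at least 20 reads in each input, the largest mean log2 ChIP over input of the 3 conditions with 2 ChIP libraries belonged to PEG3 (0.89), SNRPN (0.85), ZIM2 (0.78), PEG10 (0.53) and PPP1R9A (0.53). The smallest belonged to IGF2 (-2.05), IGF2R (-0.71), COPG2 (-0.65), GNAS (-0.43) and CALCR (-0.41). Genes with 1 short promoter fell under that read minimum, among them MAGEL2 with 1.25, NDN with 1.19, MKRN3 with 1.16 and NNAT with 1.14.

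By cluster, the ratio of ChIP to input in CPM, taken within each condition and replicate letter, ran from 0.23 to 3.45. The PEG3 cluster was the highest in 2 of the 3 libraries in 10% serum. Its ratios were 2.51 and 3.45 in WT and 3.04 in ΔLEO1 cells, and 1.84, 1.91, 2.25 and 2.06 in the 4 libraries in 0.1% serum. The NAP1L5 locus, a single window, gave 2.56 and 2.68, then 1.94 in ΔLEO1 cells in 10% serum, 2.35 and 2.26 in WT and 1.10 and 2.63 in ΔLEO1 cells in 0.1% serum. Every library of these 2 loci but that of 1.10 stood above the median over all genes, which was 1.31 to 1.38. The cluster of DLK1 and MEG3 had 1.48 to 1.81 and the Prader-Willi and Angelman cluster of SNRPN 1.39 to 1.84, both above that median in all 7 libraries, and the MEST cluster had 1.25 to 1.79. At the other end the H19/IGF2 cluster held 0.23 to 0.49 in all 7 libraries, the cluster of IGF2R and AIRN 0.68 to 1.13, and the GNAS cluster 0.94 to 1.23. All ChIP reads summed for the H19/IGF2 cluster came from IGF2, so its ratios say nothing of H19. The mean ratio was over 1 in 15 of 17 clusters in WT cells in 10% serum, 15 in WT cells in 0.1% serum, 14 in ΔLEO1 cells in 10% serum and 15 in ΔLEO1 cells in 0.1% serum, where it was over 1 in 63.9%, 66.8%, 62.7% and 68.4% of 37245 gene sums.

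**Figure D1:**
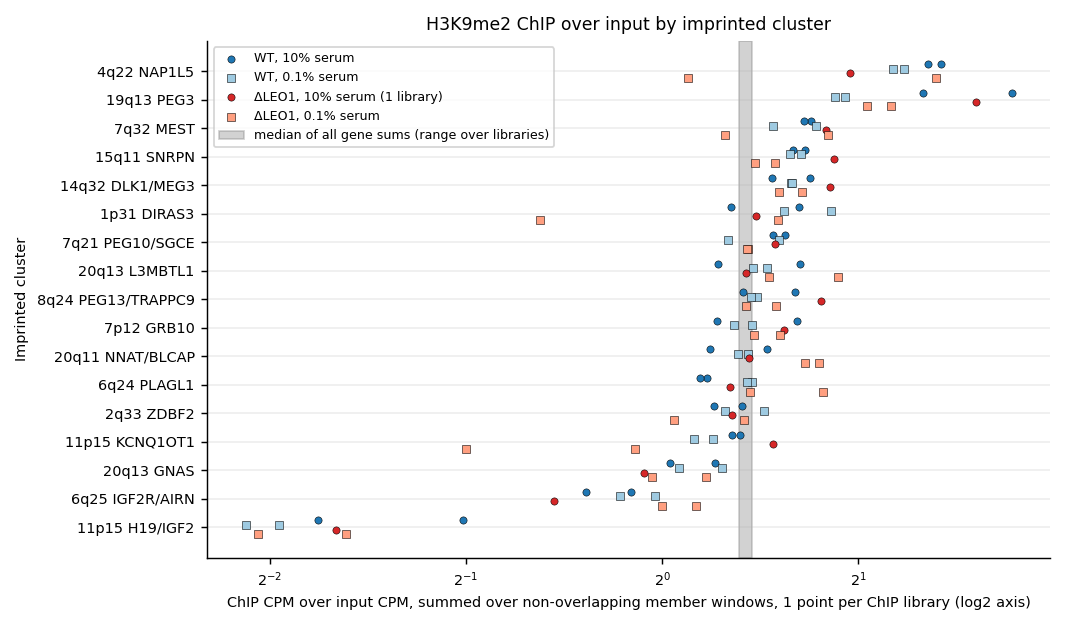
Ratio of ChIP CPM to input CPM (log2 axis) for each of the 17 imprinted clusters, 1 point per ChIP library, with colours for genotype and serum and a grey band at the median over all genes, 1.31 to 1.38. The PEG3 and NAP1L5 loci lie above the band in all libraries but 1, and the libraries of the 4 conditions overlap in most clusters. The H19/IGF2 cluster, with ChIP reads from IGF2 only, lies at 0.23 to 0.49.

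Genes transcribed from the paternal copy in the Prader-Willi region carried some of the largest ratios, above all in WT cells. In ΔLEO1 cells members elsewhere lay above some of them. In 0.1% serum NNAT had a log2 value of 1.46 and MKRN3 0.87. In the 1 ΔLEO1 ChIP library in 10% serum PEG3 had 2.28 and NDN 0.92, while an upstream start of SNRPN had 2.45. MKRN3, an intronless ubiquitin ligase gene that holds back puberty, had ratios of 5.82 and 5.95 in WT cells in 10% serum, 2.73 in ΔLEO1 cells in 10% serum, 4.06 and 2.39 in WT cells in 0.1% serum and 2.04 and 1.84 in ΔLEO1 cells in 0.1% serum, at the window that most of its transcripts share (chr15:23564783-23566783, hg38). Its log2 ChIP over input in WT cells in 10% serum was 2.40 ± 0.26 (SE). NDN, which encodes a MAGE protein of neurons, had 5.24, 3.47, 1.97, 5.56, 2.66, 2.37 and 2.44 in the same order (chr15:23686305-23688305), a log2 value of 1.95 ± 0.28 in WT cells in 10% serum. MAGEL2, its neighbour and relative, had 4.02, 2.37, 5.64, 6.27, 3.58, 2.61 and 2.47, with 1.54 on the log2 scale. All 21 ratios of these 3 genes were over 1.8, although a single library held no more than 41 ChIP reads at any of the windows. SNRPN encodes a spliceosomal protein, and its main promoter lies in the imprinting centre of the region. The window at the promoter printed above (chr15:24953987-24955987) had ratios of 4.64 and 3.24 in WT cells in 10% serum, 4.18 in ΔLEO1 cells in 10% serum, 2.8 and 2.31 in WT cells and 2.2 and 3.59 in ΔLEO1 cells in 0.1% serum, all above 2. It had a log2 value of 1.80 ± 0.30 in WT cells in 10% serum and 1.40 ± 0.33 in ΔLEO1 cells in 0.1% serum. The upstream start that most SNRPN transcripts share (chr15:24822725-24824725) had 3.39 and 2.58 in WT cells in 10% serum, 6.77 in ΔLEO1 cells in 10% serum, and 1.53, 1.85, 1.69 and 1.46 in the 4 libraries in 0.1% serum.

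PEG3, a paternally expressed zinc finger gene, and ZIM2, which shares its promoter, formed the most uniform pair. All 5 groups of PEG3 starts and all 4 of ZIM2 were higher in WT cells in 10% serum, with log2 values of 1.36 to 1.87 for PEG3 and 1.29 to 1.77 for ZIM2. The start windows of NNAT (1.81 ± 0.25), a membrane protein gene of the brain that lies in an intron of BLCAP, NAP1L5 (1.32 ± 0.27), a paternally expressed retrogene, and MEST (1.07 ± 0.26), a paternally expressed hydrolase gene, were also higher. NNAT ratios were 3.52, 3.94, 3.37, 3.36, 2.34, 2.40 and 3.36 over the 7 libraries, all above 2. Noncoding RNAs in this range were MEG8 (1.28), MEG3 (1.02), AIRN (0.96) and KCNQ1OT1 (0.77). MEG8 and MEG3 are transcribed from the maternal copy, AIRN and KCNQ1OT1 from the paternal copy. DLK1 (1.13), a paternally expressed Notch ligand, the neuronal scaffold gene PPP1R9A (1.19), the Ras-like tumour suppressor DIRAS3 (0.90), the aminophospholipid pump gene ATP10A (0.74) and the growth adaptor gene GRB10 (0.69) completed the members that were higher in WT cells in 10% serum at the 1 window that stands for each gene. Other calls came from the sums over all starts, which are centred on the sums of all genes. ATP10A was then lower (-0.43 ± 0.12, adjusted p = 0.00176 by edgeR), with 2 windows higher and 7 lower. GRB10 (0.02 ± 0.12), DIRAS3 (0.07 ± 0.29), AIRN (0.53 ± 0.31), KCNQ1OT1 (0.33 ± 0.30) and MEG3 (-0.29 ± 0.14) were not called as gene sums, while MEG8 (0.32 ± 0.11, adjusted p = 0.0136) was higher. GNAS-AS1, the antisense transcript of GNAS, was higher as a gene sum (0.62 ± 0.20, adjusted p = 0.00523), as was PEG10 (0.41 ± 0.19, adjusted p = 0.04996).

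**Figure D2:**
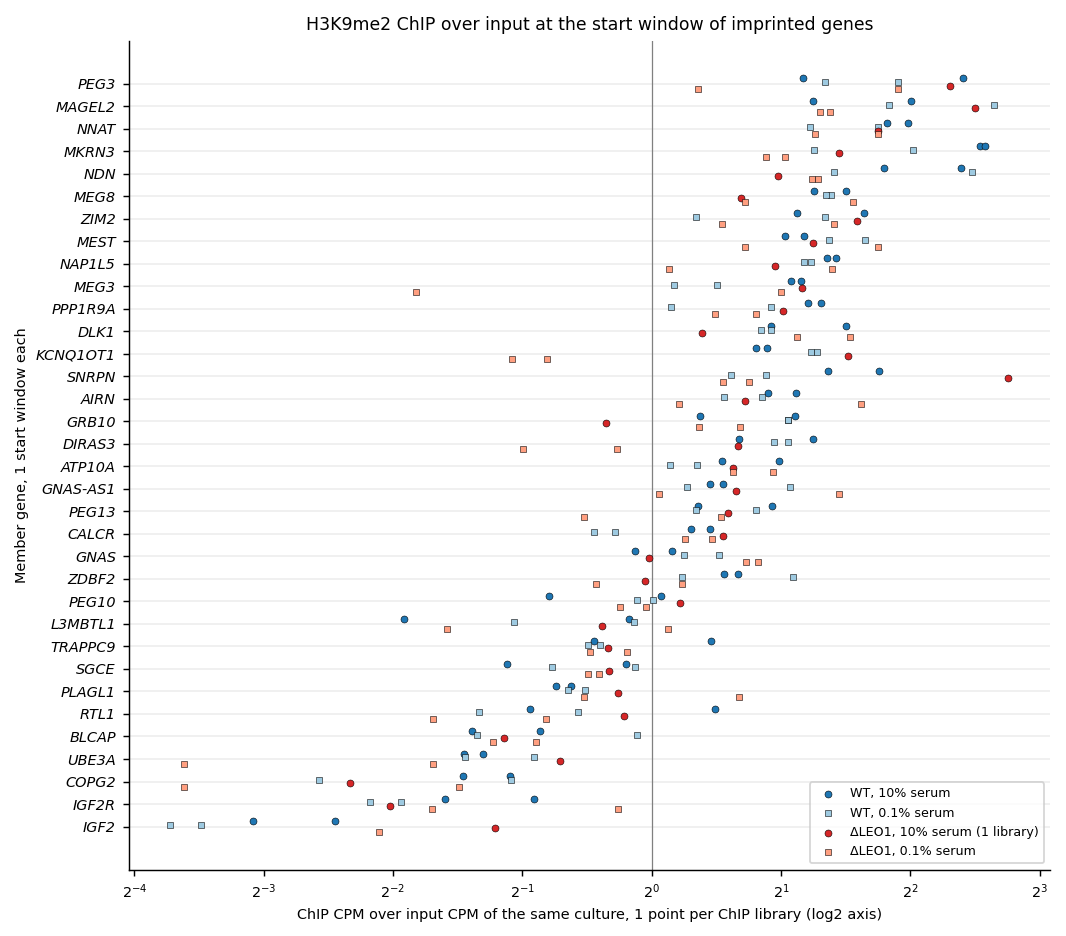
Ratio of ChIP CPM to input CPM (log2 axis) at 1 start window of each of 34 member genes, 1 point per ChIP library, coloured by genotype and serum. All libraries of MKRN3, NDN, MAGEL2 and NNAT lie between 1.84 and 6.27, SNRPN reaches 6.77 in 1 library, and IGF2 is lowest, where 1 library of ΔLEO1 cells in 0.1% serum held no ChIP read and falls off the axis.

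IGF2, which encodes a fetal growth factor, was the lowest member. Its window (chr11:2148579-2150579) held 1 and 2 ChIP reads against 21 and 34 input reads in WT cells in 10% serum, 1 and 1 against 31 and 31 in WT cells in 0.1% serum, 3 against 29 in ΔLEO1 replicate B in 10% serum, and 3 and 0 against 20 and 29 in ΔLEO1 cells in 0.1% serum. ChIP was lower than input by -2.06 ± 0.52 on the log2 scale in WT cells in 10% serum, with few reads behind it. The other members that were lower at this window in WT cells in 10% serum were UBE3A (-1.20 ± 0.40), COPG2 (-1.11 ± 0.39), BLCAP (-1.07 ± 0.37), IGF2R (-1.06 ± 0.42) and L3MBTL1 (-0.83 ± 0.37). Several of these encode proteins that most cells use: COPG2 a coat subunit of transport vesicles, UBE3A a ubiquitin ligase and IGF2R the receptor that carries lysosomal enzymes. The L3MBTL1 window counted here (chr20:43537975-43539975) is not at its RefSeq promoter. The window at that promoter was higher (1.13 ± 0.30, adjusted p = 0.000829 by edgeR). One window stands for each gene in this count, in which 16 of 32 tested members were higher and 6 lower, where 38.4% and 24.4% of 36988 genes were called by the same rule. The count was 10 and 4 in WT cells in 0.1% serum (35.3% and 21% of all), 6 and 2 in ΔLEO1 cells in 10% serum (21.1% and 9.94%), and 11 and 6 in ΔLEO1 cells in 0.1% serum (36.8% and 22.1%).

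Grouped by the copy that is expressed, 11 of 20 tested paternally expressed members were higher and 2 lower in WT cells in 10% serum. Their median log2 was 0.84, beside 0.33 over all genes, of which 38.4% were higher and 24.4% lower. Of 4 tested maternally expressed members 3 were higher and 1 lower, median 1.10. The 1 lower was UBE3A (-1.20), placed in this group although its paternal copy is silenced only in neurons and not in fibroblasts. The remaining 8, imprinted in some tissues only or expressed from both copies in most, had 2 higher and 3 lower, median 0.06. In ΔLEO1 cells in 0.1% serum the paternally expressed members had 8 higher and 3 lower with a median of 0.38, beside 0.38 over all genes. Of all genes 36.8% were higher there and 22.1% lower. The lists were not tested against each other.

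By median log2 ChIP over input, members stood further from other genes at promoters of the CpG island kind than at other promoters. RefSeq promoters of 300 bases, 250 before and 50 after the start, were found for 23 of the 37 genes, 52 promoters in all, and 42 of them, of 22 genes, matched a tested window. A promoter was called island-like when its GC share was at least 50% and its ratio of observed to expected CpG at least 0.6. Among all 13430 island-like promoters 11.6% were higher and 54.9% lower in WT cells in 10% serum, with a median log2 of -0.99. Among the 27 island-like promoters of members, which belong to 16 genes, 9 were higher (33.3%) and 7 lower (25.9%), and the median was 0.48. The members' median was 0.10 in ΔLEO1 cells in 0.1% serum, where all island-like promoters had -0.93. There 4 of the members' island-like promoters were higher (14.8%, and 10.0% of all) and 6 lower (22.2%, and 51.8% of all). For promoters that were not island-like the gap in medians was smaller in WT cells in 10% serum: members had 0.77 over 15 promoters and all such promoters 0.40 over 10053. The shares called did not show a smaller gap in higher promoters. Of the 15, 10 were higher (66.7%, and 38.2% of all) and 0 lower (16.6% of all). Starts of 1 gene share sequence, and no test was made of these medians.

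The hexamer TGCCGC, read on both strands, was present in 23 of the 52 member promoters (44.2%) and in 5878 of all 35116 (16.7%). Among island-like promoters it was in 17 of 27 (63.0%) and in 29.4% of all. A match shows letters in the window and not a bound protein.

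**Figure D3:**
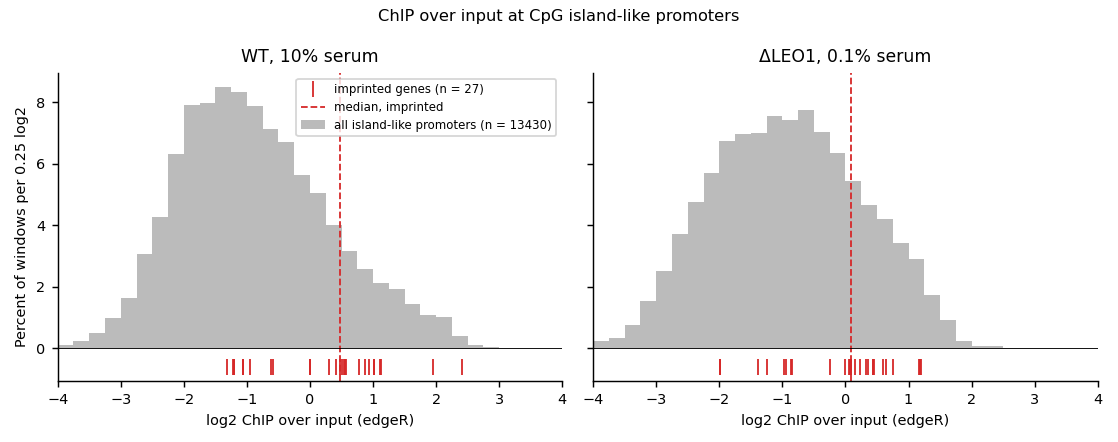
Histograms (percent of windows per 0.25 log2) of log2 ChIP over input at all 13430 CpG island-like promoters, with a red mark for each of the 27 promoters of imprinted genes and a dashed line at their median, in WT cells in 10% serum and in ΔLEO1 cells in 0.1% serum. The bulk of island-like promoters lies below 0 with medians of -0.99 and -0.93, and the imprinted ones are spread to both sides with medians of 0.48 and 0.10.

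Alternative starts of 1 gene often lay on opposite sides of input. The main promoter of PEG10, a retrotransposon-derived gene that it shares with SGCE, gave -0.33 ± 0.32 in WT cells in 10% serum, and a start further along the chromosome (chr7:94663735-94665735) gave 1.53 ± 0.23. UBE3A gave -1.20 ± 0.40 at its promoter, while starts within the gene reached 0.84 ± 0.29 and 1.28 ± 0.28. COPG2 showed the same split, with -1.11 ± 0.39 at the promoter and 0.88 ± 0.32 at a start within the gene. L3MBTL1, a chromatin-binding protein gene, ran from -1.81 ± 0.49 to 1.10 ± 0.30 over 7 groups of starts.

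GNAS, which encodes the stimulatory G protein subunit and overlapping imprinted transcripts, had 6 groups of starts. The windows that stand for them, 1 for each group, gave -0.43 to 0.83 in WT cells in 10% serum, and that at chr20:58852263-58854263 was called (0.83 ± 0.31). Of all 59 windows of the gene 11 were higher and 15 lower, and the gene sum was lower (-0.57 ± 0.14, adjusted p = 0.000276 by edgeR). In ΔLEO1 cells in 0.1% serum the group at chr20:58888881-58890881 was lower (-1.42, adjusted p = 0.006 by edgeR). MEG3, a noncoding RNA with tumour-suppressing roles, had 1.02 ± 0.31 at chr14:100825118-100827118 and -0.90 ± 0.39 at a start 5 kb on. MEST kept a narrow range of 0.54 to 1.17 over 4 groups, and SNRPN 1.31 to 1.80 over 3 groups, all of which were called. IGF2 was below input at all 3 of its groups, -0.58, -2.06 and -1.39, the first of which was not called. Whether neighbouring starts of 1 gene differ was not tested.

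**Figure D4:**
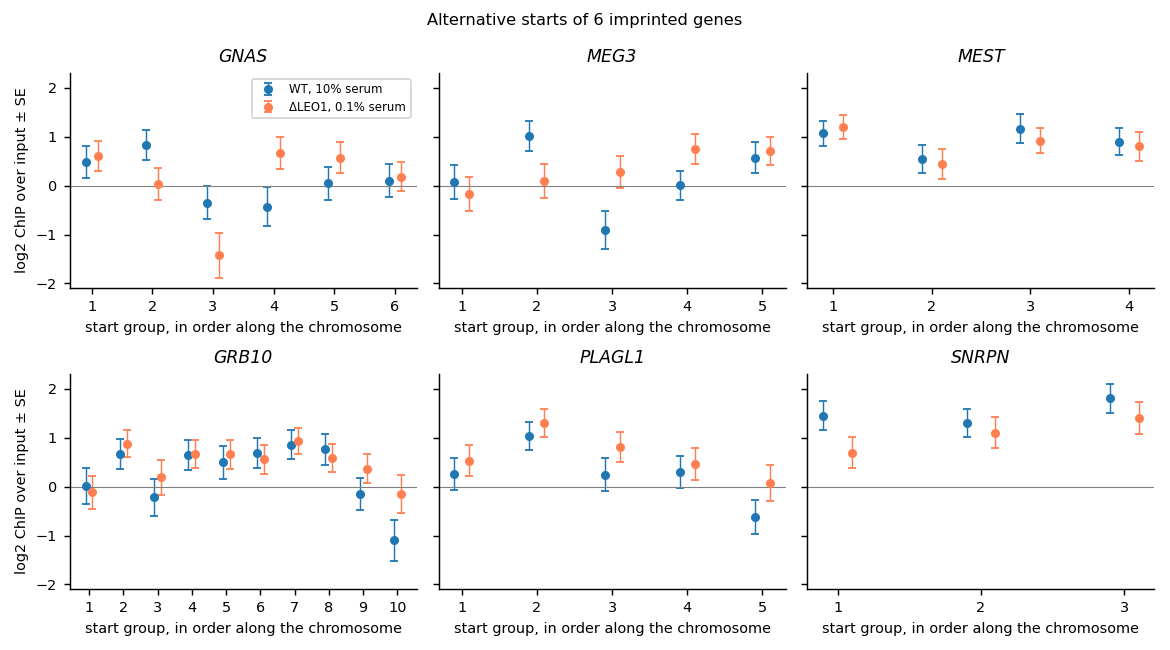
Fitted log2 ChIP over input ± SE for each group of starts of 6 imprinted genes, numbered along the chromosome, in WT cells in 10% serum and ΔLEO1 cells in 0.1% serum. Groups of 1 gene lie on both sides of 0 in several panels, as for MEG3, from -0.90 to 1.02 in WT cells in 10% serum.

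Genes around the members and genes that keep imprints gave the context. Of 43 other genes of the same clusters 38 could be tested, of which 18 were higher and 8 lower in WT cells in 10% serum, with a median of 0.42, beside 38.4% and 24.4% called and a median of 0.33 over all genes by the same rule. COBL beside GRB10 had 2.2, DIO3 in the DLK1 cluster 2.19, NPAP1 in the Prader-Willi region 2.06 and USP29 beside PEG3 1.90, while TSSC4 on 11p15 had -2.24. Of 16 regulators of imprints 13 could be tested, with 1 higher, 7 lower and a median of -1.19, beside the same shares and median of all genes. The insulator protein gene CTCF had -3.31, the DNA methyltransferase gene DNMT3B -2.53, the histone demethylase gene KDM1B -2.34 and the maintenance factor gene UHRF1 -2.12, and DPPA3, a germline gene, was the 1 that was higher (0.95). No gene of these lists was called in any comparison of genotypes or sera.

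Peak regions, which the authors merged over libraries and annotated, named a member 27 times among 16092 regions. Of the 27, 12 lay on repeats, 6 between genes, 2 in introns and 7 on parts of genes, while 64.5% of all regions were on repeats. The gene parts were exons of AIRN (2 regions), the single exon of MAGEL2 (2 regions), the promoter of NNAT, the upstream start of SNRPN, and the end of PEG13. Those at NNAT and SNRPN lie inside the windows described above. No member region was called in any comparison when the peak table was fitted alone with edgeR, which centres each comparison on the peaks themselves. Of all regions 0% were higher and 0.0932% lower than input in WT cells in 10% serum, 0.0124% and 0.0684% in WT cells in 0.1% serum, 0% and 0% in ΔLEO1 cells in 10% serum and 0% and 0.0249% in ΔLEO1 cells in 0.1% serum. The share called was 0.00621% higher for genotype in 10% serum and 0.00621% lower for the interaction, and 0% in the other differences. Member regions at an unadjusted p under 0.05 numbered 0 to 2 in each direction of each comparison.

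LEO1 genotype was compared first in 0.1% serum, in which the study asks how LEO1 acts in quiescence. None of the 493 member windows was called by edgeR (0.00146% of all tested windows were called higher and 0.0102% lower), nor by DESeq2, with 5 higher and 21 lower at an unadjusted p under 0.05 (3.68% and 3.88% of all windows). No gene sum of a member was called by edgeR (0.0268% and 0.0778% of all) or DESeq2, with 0 higher and 2 lower at an unadjusted p under 0.05 (3.96% and 4.31% of all gene sums). The median difference over 32 member genes was -0.14 on the log2 scale, beside -0.01 over all genes. Both ratios of 1 genotype lay outside those of the other for 7 of 35 member genes with ΔLEO1 higher (21.8% of all genes) and 7 with ΔLEO1 lower (17.7%), shares near those of all genes.

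KCNQ1OT1 had the smallest unadjusted p of the members for genotype in 0.1% serum. It is a long noncoding RNA, transcribed from the paternal copy against the direction of KCNQ1, and its start lies in the imprinting control region of its cluster. The window (chr11:2698994-2700994) held 23 and 14 ChIP reads in WT cells in 0.1% serum, with 23 and 16 input reads, and 7 and 5 ChIP reads in ΔLEO1 cells in 0.1% serum, with 19 and 38 input reads. In 10% serum it held 12 and 28 ChIP reads and 17 and 47 input reads in WT cells, and 26 ChIP and 38 input reads in ΔLEO1 replicate B. The ratios were therefore 2.35 and 2.42 in WT cells in 0.1% serum, 0.57 and 0.47 in ΔLEO1 cells in 0.1% serum, 1.75 and 1.85 in WT cells in 10% serum and 2.86 in ΔLEO1 cells in 10% serum. Quiescent ΔLEO1 libraries were the only ones below input, and they do not overlap the other 5. ChIP over input was 1.15 on the log2 scale in WT cells in 0.1% serum (adjusted p = 0.002, edgeR) and -0.87 ± 0.39 in ΔLEO1 cells in 0.1% serum (adjusted p = 0.0496). The difference, -2.03 ± 0.51, was not called over all windows (adjusted p = 0.16) or as a gene sum (-2.02 ± 0.50, adjusted p = 0.0778). Without the low-count filter, with all 16 libraries or with the ChIP libraries alone, the gene sum was called, with adjusted p of 0.0374, 0.0477 and 0.0184 (edgeR). Of all gene sums 1.03% were called lower with ChIP libraries alone. The shares with no filter and with all 16 libraries are not given beside this gene sum. Over its 12 alternatives the adjusted p ran from 0.0184 to 1.00 and the log2 value from -2.27 to -1.41.

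DIRAS3 stood next. Its window (chr1:68050623-68052623) had ratios of 1.92 and 2.08 in WT cells and 0.50 and 0.83 in ΔLEO1 cells in 0.1% serum, and of 2.37, 1.60 and 1.59 in the 3 libraries in 10% serum. The ΔLEO1 libraries were both below the WT ones, with a difference of -1.51 ± 0.44 (adjusted p = 0.312, edgeR) that was not called. An alternative start of BLCAP, a gene for a growth-inhibiting protein, had the reverse order (chr20:37508231-37510231), with 1.06 and 1.07 in WT and 2.19 and 3.59 in ΔLEO1 cells in 0.1% serum, but its ratios in 10% serum were 2.2, 1.89 and 1.53. The difference of 1.30 ± 0.40 was not called (adjusted p = 0.367). Starts of TRAPPC9 (1.54 ± 0.52) and L3MBTL1 (1.44 ± 0.56) followed, with adjusted p of 0.409 and 0.497. NAP1L5 differed in ChIP more evenly than in input. Its ChIP level was 12.3 and 12 CPM in WT and 5.39 and 5.18 CPM in ΔLEO1 cells in 0.1% serum, and input was 5.25, 5.30, 4.93 and 1.97 CPM. Over input the difference was -0.46 ± 0.48 (adjusted p = 0.875), and with ChIP libraries alone the gene sum was -1.09 ± 0.29 (adjusted p = 0.0204), where 1.03% of all gene sums were called lower.

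**Figure D5:**
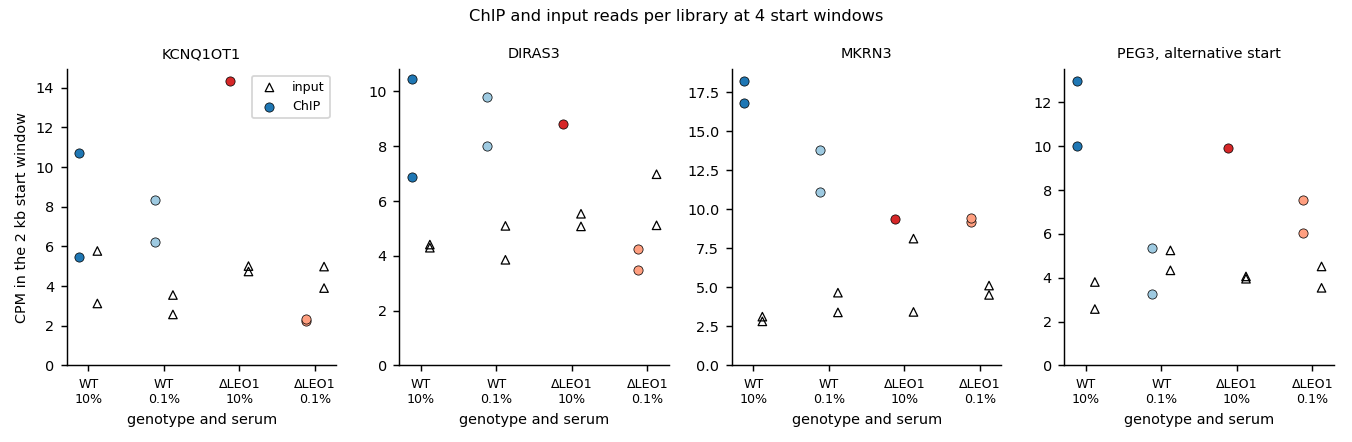
ChIP (filled circles) and input (open triangles) in CPM per library at the start windows of KCNQ1OT1, DIRAS3, MKRN3 and an alternative start of PEG3, by genotype and serum. At KCNQ1OT1 both ChIP libraries of ΔLEO1 cells in 0.1% serum lie at 2.22 and 2.35 CPM, below the 5 other ChIP libraries at 5.46 to 14.3 CPM.

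In 10% serum the comparison of genotypes rests on 1 ΔLEO1 ChIP library. No member window or gene sum was called by edgeR (0% higher and 0.00631% lower among all windows, 0% of gene sums) or DESeq2, with 19 windows higher and 13 lower at an unadjusted p under 0.05 (2.9% and 3.5% of all). MKRN3 had the smallest unadjusted p. Its window at chr15:23564674-23566674 held 38 and 41 ChIP reads in WT cells and 16 in ΔLEO1 cells, over 15, 22 and 28 input reads, and the ratios were 6.27, 5.80 and 2.39. The difference of ΔLEO1 from WT was -1.62 ± 0.47, which was not called (adjusted p = 0.471). In 0.1% serum the same window had 4.06 and 2.37 in WT and 1.87 and 1.66 in ΔLEO1 cells, a difference of -0.79 ± 0.38 (adjusted p = 0.63), so ΔLEO1 libraries were below WT libraries in both sera. The summed windows of NDN gave -1.0 ± 0.48 in 10% serum (adjusted p = 0.709) and those of MAGEL2 0.80 ± 0.45 (adjusted p = 0.763), in the other direction. Higher values came from starts of TRAPPC9 (1.87 ± 0.65) and GRB10 (1.31 ± 0.54 and 1.33 ± 0.55), none of which was called.

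Serum withdrawal in WT cells also left no member called by edgeR (0.000485% of all windows were higher and 0% lower, and 0.0268% and 0.00268% of gene sums) or DESeq2. At an unadjusted p under 0.05 there were 5 windows higher and 12 lower (3.57% and 4.02% of all). The paternally expressed genes with high ratios went both ways, without passing the test. Gene sums of PEG3 gave ratios of 2.91 and 3.68 in 10% serum and 2.35 and 2.07 in 0.1% serum, a difference of -0.52 ± 0.20 (adjusted p = 0.315). ZIM2 had 2.36 and 3.64, then 1.99 and 2.06 (-0.51 ± 0.22, adjusted p = 0.414), and MKRN3 6.27 and 5.80, then 4.06 and 2.37 (-0.81 ± 0.38, adjusted p = 0.46). In each of the 3 genes the groups did not overlap, which held for 11 of 35 member genes in this direction (22.5% of all genes) and for 6 in the other (18.6%). PEG3 and ZIM2 share part of their windows and are not independent. SNRPN (-0.49), NNAT (-0.34), NDN (-0.23) and NAP1L5 (-0.13) had differences of the same sign, and MAGEL2 (0.57), PEG10 (0.11) and MEST (0.06) of the other. The smallest unadjusted p was at an alternative start of PEG3 (chr19:56810283-56812283), with 22 and 34 ChIP reads in 10% serum and 9 and 12 in 0.1% serum, over 14, 31, 34 and 27 input reads. The ratios there were 3.89 and 3.41 in 10% serum and 0.62 and 1.23 in 0.1% serum, a difference of -1.86 ± 0.44 that was not called (adjusted p = 0.289), and with ChIP libraries alone it was called (adjusted p = 0.0188), where 0.184% of all windows were called lower. Over its 14 alternatives the adjusted p ran from 0.0188 to 1.00. Higher values in 0.1% serum came from starts of ATP10A (1.47 ± 0.51) and MEST (0.85 ± 0.38), with adjusted p of 0.429 and 0.585.

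In ΔLEO1 cells serum withdrawal was read against the 1 ChIP library in 10% serum. No member was called by edgeR (0% of all windows and of gene sums) or DESeq2, and 9 windows were higher and 32 lower at an unadjusted p under 0.05 (3.55% and 3.64% of all). KCNQ1OT1 gave -2.33 ± 0.54 (adjusted p = 0.235), where the same step in WT cells gave 0.38 ± 0.41. The upstream SNRPN start (chr15:24822725-24824725) had 6.77 in 10% serum and 1.69 and 1.46 in 0.1% serum, a difference of -1.76 ± 0.48 (adjusted p = 0.374), while the window at the imprinting centre gave -0.33 ± 0.57 (adjusted p = 0.94). With ChIP libraries alone 10 member windows were called lower, at KCNQ1OT1, SNRPN and the promoter shared by PEG3 and ZIM2, where 0.0497% of all windows were called lower, and all 10 turn on that 1 library. A start of GNAS (chr20:58906981-58908981) gave 3.15 ± 1.00 with 0 ChIP reads in the library in 10% serum and 14 and 8 in 0.1% serum, so the size of that value depends on the prior count and is no measured fold. MEG3 starts gave 1.92 ± 0.79 and 1.82 ± 0.79, with adjusted p of 0.613 and 0.644.

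The interaction asks whether the response to serum differed between genotypes. No member window or gene sum was called by edgeR (0% of all windows and of gene sums) or DESeq2, with 5 windows higher and 10 lower at an unadjusted p under 0.05 (3.08% and 2.58% of all). KCNQ1OT1 had the smallest unadjusted p, with -2.72 ± 0.69 (adjusted p = 0.603), and values of the same sign came from a start of GNAS (-2.34 ± 0.87) and 1 of TRAPPC9 (-1.63 ± 0.68). BLCAP gave 1.67 ± 0.63 and another start of TRAPPC9 1.77 ± 0.79. The GNAS start without ChIP reads in the ΔLEO1 library in 10% serum gave 3.69 ± 1.18, a value that again depends on the prior count. All of these turn on the 1 ΔLEO1 ChIP library in 10% serum.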

How the data were processed

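The authors deposited whole-number counts of reads, without scaling, for 16 libraries at 2 kb start windows and at merged peak regions. The submitters' processing notes name bcl2fastq 2.20.0.422, STAR 2.7.10a, HOMER and the builds hg38 and dm6, and the methods name csaw. How duplicate reads were handled is not given in the sources used here. Coordinates are hg38 as deposited. Each library column was mapped by its name to 1 sample, in 8 groups of 2.

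Distinct windows of 15 libraries were fitted in 1 model with edgeR 4.0.16 (R 4.3.3), with filterByExpr (minimum count 10), trimmed mean of M-values (TMM) scaling and a prior count of 2. The quasi-likelihood test, two-sided, gave ChIP over input per condition and the differences between those values. P-values were Benjamini-Hochberg adjusted over all features tested, and under 0.05 was called. Counts of non-overlapping windows were also summed per gene symbol, and the peak table was fitted alone. Errors are approximate SE, the absolute log2 value divided by the square root of the F statistic of the test. They can be unstable where the log2 value is near 0. Library ratios divide ChIP by input CPM of the same genotype, serum and letter. The step was tested on simulated data.

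Members and gene lists were chosen with earlier results of these data known. Each gene is shown by the window that most transcripts share, ties by input level. The 5 largest and 5 smallest gene sums with at least 20 reads in each input are named, and for each difference 3 windows in each direction by p. Alternatives were no filter, other scalings, DESeq2 1.42.0, replicate blocks, other sets of libraries and leaving out 1 replicate, its ChIP and input together. Fits of gene sums with DESeq2, with blocks, with ChIP libraries alone, with all 16 libraries and without single replicates were added after seeing the data.

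Letters A and B were checked for pairing through the correlation of A minus B differences between groups, which was -0.0355 to 0.11. Between groups of inputs it was above 0 throughout, from 0.0122 to 0.11. Single windows hold few reads, so a correlation near 0 cannot exclude pairing by letter, and the main fit used no block for it.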

Additional observations from a re-analysis of the deposited data

How the results depend on the processing

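Of the counts recomputed under the alternatives, 376 stayed within 1.5 times the value given and 56 did not, and the cause was not tested. Apart from ChIP libraries alone, the shares of all windows and gene sums called under these alternatives are not given here. Member counts under them therefore cannot be set against all features. With reads in peaks as library sizes, the median of all windows moved by -2.05 to -1.64 on the log2 scale, 40 of 61 named windows changed sign, and 0 member windows or gene sums were higher in any condition. Lower windows then numbered 468 and 472 in WT cells in 10% and 0.1% serum and 361 and 442 in ΔLEO1 cells, lower gene sums 32, 32, 28 and 31, and 0 clusters had a mean ratio over 1. DESeq2 called 84, 58, 24 and 38 windows higher in the same order, 29 lower in WT cells in 0.1% serum and 0 lower in ΔLEO1 cells in 10% serum, and 8, 6, 5 and 4 gene sums higher with 2 lower in WT cells in 0.1% serum. For ΔLEO1 cells in 10% serum, all 16 libraries gave 54 higher windows, and the libraries compared alone 62 higher and 4 lower.

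In the comparisons of genotype and serum, calls appeared under 3 settings. KCNQ1OT1 was the 1 gene sum called lower for genotype in 0.1% serum with no filter and with all 16 libraries, and ChIP libraries alone called 2, KCNQ1OT1 and NAP1L5. ChIP libraries alone also called 1 window lower for serum in WT cells and 10 windows and 3 gene sums (KCNQ1OT1, SNRPN and ZIM2) lower for serum in ΔLEO1 cells. With ChIP libraries alone, 1.03% of all gene sums were called lower for genotype in 0.1% serum. For serum, 0.184% of all windows were called lower in WT cells. In ΔLEO1 cells the shares were 0.0497% of windows and 0.299% of gene sums. The MAGEL2 gene sum for serum in WT cells, 0.57 and not called, became -0.0155 with ChIP libraries alone.

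Leaving out either replicate left 91 to 119 windows higher and 17 to 55 lower in WT cells in 10% serum, 65 to 92 and 20 to 22 in WT cells in 0.1% serum, and 53 to 58 and 33 to 45 in ΔLEO1 cells in 0.1% serum. Gene sums were then 8 to 9 higher and 3 to 4 lower, 2 to 9 and 2, and 3 to 5 and 2 to 3. Without the input of replicate A, ΔLEO1 cells in 10% serum had 111 and 13 windows and 8 and 5 gene sums. ΔLEO1 in 10% serum without replicate B was not run, since no ChIP library would remain. None of the comparisons of genotype and serum gained a call when a replicate was left out. The KCNQ1OT1 gene sum for genotype in 0.1% serum was not called in any of these fits.

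With the replicate letter as a block, 178 windows were higher and 66 lower in WT cells in 10% serum, and the block changed no call in the comparisons of genotype and serum. A median window held 6 to 12 ChIP reads, which limits what a single window can show. Among 121 single values named in the text, with ChIP over input read relative to the median of all windows, the alternatives left the direction and the call as they were in 1294 recomputed values, took the call away in 145, all of ChIP over input, gave one in 8 and changed the sign of 1. Of the 145, 43 came with reads in peaks as library sizes, 26 with DESeq2 and 47 when a replicate was left out.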
